A study of Mus musculus with 12 samples.

Results

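Iron metabolism was followed here through 8 mRNAs that either carry iron control or exert it: Fth1, Ftl1 and Slc40a1, known for iron control in the 5′UTR, Tfrc and Slc11a2, known for control in the 3′UTR, and the regulators Aco1, Ireb2 and Fbxl5. The 8 were taken by gene symbol, with each transcript identifier of the deposited table matched to GENCODE annotation of mouse GRCm38. Each symbol had 1 transcript, so that the 8 genes were 8 of 22467 transcripts. Of these, 7 passed the filter on low counts (more than 0.75 CPM, a count scaled to its library's total, in 3 or more RPF libraries) that left 12576 transcripts for testing, and Ftl1 did not. Libraries came from whole E8.5 mouse embryos, 3 Rpl10a +/+ (WT) and 3 Rpl10a LOF/LOF (LOF), on a C57BL/6 background. Rpl10a encodes RPL10A/uL1, a protein of the large ribosomal subunit. The LOF allele is a CRISPR deletion in the first intron that leaves the intron in the mRNA and extends the protein at its N terminus, in every cell of the embryo. Cycloheximide, which stalls ribosomes, was in the dissection and lysis buffers of all embryos. No embryos were pooled, and each embryo gave 1 ribosome profiling library of ribosome-protected fragments (RPF) and 1 RNA-seq library. Embryos are called 1 to 3 within a genotype by the replicate number of their labels. RPF counts stand for ribosomes on the coding sequence (CDS), and RNA counts for mRNA abundance, in both cases summed over all cells of the embryo, so that fewer cells of a type and less mRNA in each cell cannot be told apart.

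Cells keep free iron within narrow limits by translating or degrading a small set of mRNAs. The iron regulatory proteins IRP1, made from Aco1, and IRP2, made from Ireb2, bind a hairpin called the iron-responsive element (IRE) when iron is scarce. Bound in a 5′UTR the hairpin blocks loading of the small ribosomal subunit, so ferritin, which stores iron, and ferroportin (Slc40a1), which exports it, are made less. Bound in a 3′UTR it protects the mRNA from decay, so that the transferrin receptor (Tfrc), which imports iron, is made more. FBXL5, the substrate receptor of an SCF ubiquitin ligase, senses iron and directs IRP2 to degradation when iron is plentiful, whereas IRP1 takes up an iron-sulfur cluster and becomes the cytosolic aconitase. At E8.5 yolk sac endoderm passes nutrients from the mother to the embryo, and the primitive red cells take up iron for hemoglobin.

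The hairpins themselves are shown first, since the mRNAs were grouped by where such control is known to lie. The UTRs of the counted transcripts were searched on the sense strand for the letters CNNNNNCAGTGN, in which the leading C is the unpaired base of the IRE and the final 6 letters are its loop, and for 5 pairs (G-T pairs allowed) between the 5 bases on either side of the loop. Matches in this sense stood in 19 of 18440 5′UTRs (0.103%) and in 110 of 18914 3′UTRs (0.582%). The letters alone are far more common, in 8.55% of 5′UTRs and 34.2% of 3′UTRs. Among the 8 mRNAs 4 had a paired match, 3 in the 5′UTR and 1 in the 3′UTR. The windows of 30 bases are given 5′ to 3′ as DNA letters from the GENCODE transcripts, with capitals on the unpaired C and on the loop.
Fth1 5′UTR: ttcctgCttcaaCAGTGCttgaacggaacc
Ftl1 5′UTR: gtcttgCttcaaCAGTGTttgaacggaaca
Slc40a1 5′UTR: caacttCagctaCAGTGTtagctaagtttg
Tfrc 3′UTR, match 1: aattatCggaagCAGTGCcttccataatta
Tfrc 3′UTR, match 2: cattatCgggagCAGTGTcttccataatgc
Tfrc 3′UTR, match 3: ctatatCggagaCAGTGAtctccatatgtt
Tfrc 3′UTR, match 4: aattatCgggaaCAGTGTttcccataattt
Alas2 5′UTR: ttggttCgtcctCAGTGCagggcaacagga
Epas1 5′UTR: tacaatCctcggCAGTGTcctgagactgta

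In GRCm38 these windows lie at chr19:9982732-9982761 on the plus strand for Fth1, chr7:45459778-45459807 on the minus strand for Ftl1 and chr1:45925464-45925493 on the minus strand for Slc40a1. The Tfrc windows lie on the plus strand at chr16:32631219-32631248, chr16:32631598-32631627, chr16:32631663-32631692 and chr16:32631710-32631739. The last 2 windows (Alas2 across an exon junction, Epas1 at chr17:86753768-86753797, both on the plus strand) belong to mRNAs outside the 8 that are also known for a 5′ IRE and served for comparison. In Epas1 the stem had 5 pairs only when 1 base was left unpaired. The unpaired C lay 93 nt from the 5′ end of the Fth1 transcript, 84 nt in Ftl1 and 96 nt in Slc40a1, and 132, 170 and 224 nt before the start codon. Tfrc had 5 matches to the letters in its 3′UTR, of which 4 were paired, and the C of these 4 lay 889, 1268, 1333 and 1380 nt into the 3′UTR. The counted Slc11a2 transcript had no paired match. Slc11a2 is known to be made with and without the IRE by alternative 3′ ends. Coding GENCODE transcripts were searched over their whole length, and a stem with 1 base left unpaired also counted there. By this looser rule 1 of 6 coding transcripts of Slc11a2 (Slc11a2-205) held a match. Likewise 1 of 4 coding transcripts of Slc40a1 held its match, and there the counted transcript was that one. Aco1, Ireb2 and Fbxl5 had none.

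**Figure D1:**
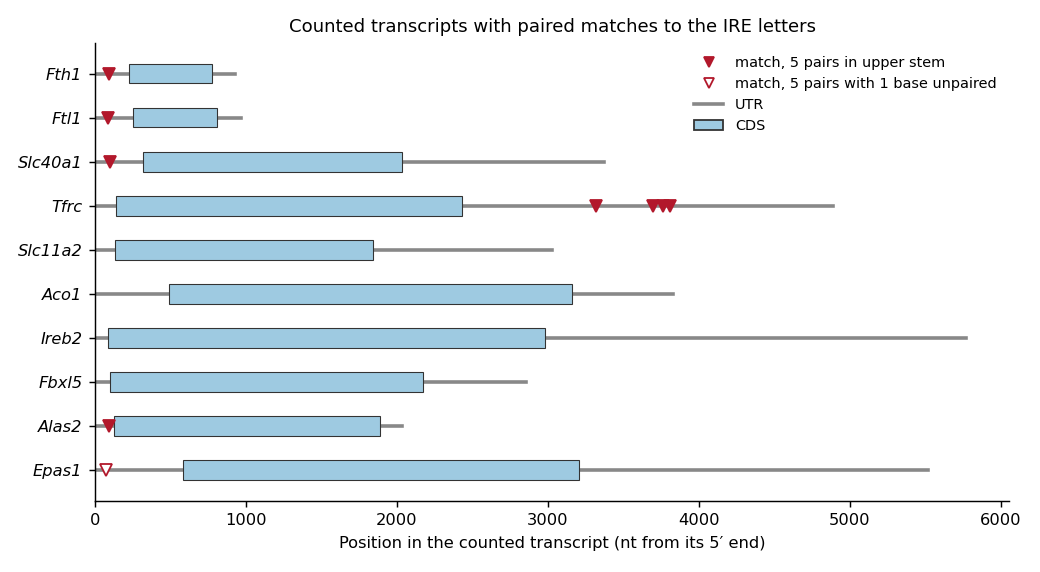
Each counted transcript is drawn to scale in nt from its 5′ end, with the CDS as a box and the UTRs as lines. Filled triangles are matches to the IRE letters with 5 pairs in the stem. An open triangle marks Epas1, where 5 pairs form only with 1 base left unpaired, and other matches are not drawn. The single paired 5′UTR matches of Fth1, Ftl1 and Slc40a1 sit 84 to 96 nt from the 5′ end, and the 4 paired Tfrc matches sit in the middle of a 3′UTR of 2458 nt.

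The transcripts differ widely in length, which matters for comparing levels between genes. Fth1, the heavy ferritin chain (ENSMUST00000025563.6, chr19:9982646-9985098, plus strand, 4 exons), had a CDS of 549 nt and Ftl1, the light chain (ENSMUST00000094434.12, chr7:45457944-45459884, minus strand, 4 exons), one of 552 nt. Slc40a1 (ENSMUST00000027137.10, chr1:45908068-45925582, minus strand, 8 exons) had 1713 nt, Tfrc (ENSMUST00000023486.14, chr16:32608920-32632794, plus strand, 19 exons) 2292 nt and Slc11a2, the divalent metal transporter DMT1 (ENSMUST00000023774.11, chr15:100387898-100423055, minus strand, 17 exons), 1707 nt. Of the regulators, Aco1 (ENSMUST00000102973.3, chr4:40143081-40198338, plus strand, 21 exons) had 2670 nt, Ireb2 (ENSMUST00000034843.8, chr9:54863789-54912530, plus strand, 22 exons) 2892 nt and Fbxl5 (ENSMUST00000047857.15, chr5:43744616-43782150, minus strand, 11 exons) 2073 nt.

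RPF libraries held 7041357 to 10863499 counts and RNA libraries 9132521 to 26561843. The targeted gene separated the genotypes. Rpl10a RPF was 1562, 1611 and 1679 CPM (scaled by TMM) in the WT embryos and 1125, 1039.6 and 939.7 in the LOF embryos (log2 fold change -0.64, SE 0.074, FDR = 0.00689, and 0.102 without WT embryo 2). All 12 embryo markers that were listed (Sox2, Tbx6, Nkx2-5 and others) passed the filter, and their differences are given with the other markers. The summed RPF of 4 Y-linked genes was 163 to 181 CPM in the WT embryos and 153 in LOF embryo 2, but 9.33 and 0.380 CPM in LOF embryos 1 and 3, so that the Y-linked level was not balanced between the genotypes.

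In WT embryos Fth1 was the most abundant of the 8 mRNAs per unit length. Its RNA level was 339, 306 and 329 CPM per kb of transcript in the 3 embryos, and that of Tfrc, the next, 73.0, 73.4 and 77.4. Ireb2 followed at 47.8 ± 6.22 (mean ± SD, n = 3), then Fbxl5 at 33.0 ± 1.10, Aco1 at 32.5 ± 0.0782, Ftl1 at 31.5 ± 3.63, Slc11a2 at 11.0 ± 0.413 and Slc40a1 at 6.41 ± 0.447. The embryos' ranges overlapped between Fbxl5 and Aco1 and between Aco1 and Ftl1, and between no other neighbours in this order. Ribosome footprints were ordered differently. Per kb of counted CDS, Fth1 RPF was 344, 279.6 and 364 CPM and Tfrc RPF 207, 219 and 225, so that Fth1 exceeded Tfrc 4.36-fold in mRNA but 1.52-fold in footprints. Aco1 came next at 86.8 ± 1.54, above Ireb2 at 56.6 ± 0.894, and then Slc11a2 (22.5 ± 1.39), Fbxl5 (18.1 ± 1.58) and Slc40a1 (9.99 ± 1.53), with no overlap between neighbours.

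Ftl1 could not be read in RPF. Its RPF counts were 6, 2 and 2 in the WT and 3, 11 and 10 in the LOF embryos, beside RNA counts of 291, 690 and 669 and of 479, 563 and 286. Cutting its counted CDS into overlapping windows of 30 nt, 403 of 463 (87%) also occurred in the pseudogene copies Ftl1-ps1 and Ftl2-ps of the same table. Ftl1-ps1 had 0 RPF counts in the 6 RPF libraries and 66 to 295 RNA counts, and Ftl2-ps 0 RPF counts and at most 2 RNA counts. How reads that match more than 1 transcript were counted is not given in the sources used here, and the Ftl1 RPF is therefore reported as counts only. The other 7 CDSs shared no window with another transcript of the table, although 26.5% of the Fth1 windows occur in GENCODE transcripts outside it.

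The number of footprints per mRNA was expressed as the log2 ratio of RPF per kb of counted CDS to RNA per kb of transcript, relative to the median transcript of the same embryo (12568 transcripts). The contrast between the ferritin heavy chain and the transferrin receptor was plain in the WT embryos. Fth1 stood at -0.72, -0.89 and -0.61, a mean of -0.74 ± 0.14 (SD) and 0.599 times the median transcript, at percentile 25.6. Tfrc stood at 0.76, 0.82 and 0.79, a mean of 0.79 ± 0.029 and 1.73 times the median, at percentile 80.6. The Fth1 values lay below the Tfrc values in every WT embryo, with differences of -1.49, -1.71 and -1.40.

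The second mRNA of each kind was closer to the middle. Slc40a1 had a log2 RPF/RNA of 0.064, -0.25 and -0.16 in the WT embryos (percentile 45.6 of the mean) and Slc11a2 of 0.40, 0.12 and 0.31 (percentile 60.8). Averaged as fixed groups, Fth1 and Slc40a1 differed from Tfrc and Slc11a2 by -0.91, -1.04 and -0.94, a mean difference of -0.96 ± 0.066 on the log2 scale or 0.514-fold. This is a description of 4 mRNAs, and the counted Slc11a2 transcript, as shown above, holds no IRE match. The RNA density of Slc11a2 also depends on which of its transcripts the embryos make, since reads were counted along 1 of them.

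The regulators spanned most of the range. Aco1 stood at 0.65, 0.67 and 0.68 (percentile 76.1), Ireb2 at -0.43, -0.69 and -0.37 (percentile 32.5), and Fbxl5 at -1.73, -1.53 and -1.59 (percentile 8.8, 0.326 times the median). Thus the 2 IRP mRNAs, which encode related proteins, differed by 1.16 on the log2 scale in footprints per mRNA, while Fbxl5 had the lowest ratio of the 7. From high to low the order was Tfrc, Aco1, Slc11a2, Slc40a1, Ireb2, Fth1 and Fbxl5, and among neighbours in it the WT ranges overlapped only between Ireb2 and Fth1. The 25th and 75th percentiles of all transcripts were -0.77 and 0.64.

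A 5′ IRE did not mark a low ratio in every mRNA that has one. Among the comparison mRNAs, Alas2, the erythroid enzyme that starts heme synthesis, had a low ratio in WT embryos (mean -0.64 ± 0.29, percentile 28.4) near that of Fth1. Epas1, the hypoxia-inducible factor HIF-2 alpha, was high instead (0.91 ± 0.14, percentile 83.9), above Tfrc in the mean.

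**Figure D2:**
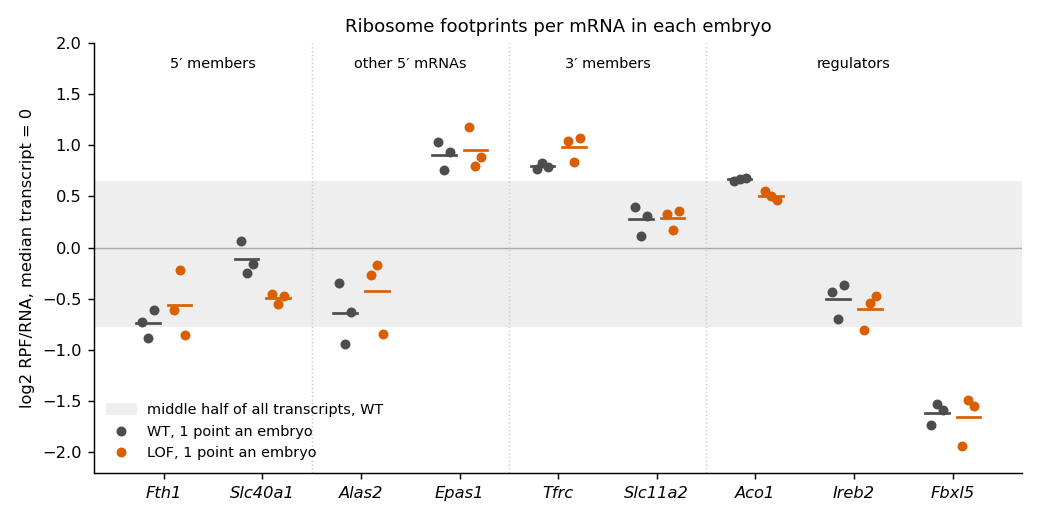
Points give the log2 RPF/RNA of single embryos (grey, WT; orange, LOF), bars the mean of 3, and the grey band the range from the 25th to the 75th percentile of all transcripts in WT embryos. Fth1 and Alas2 lie low and Tfrc and Epas1 high in both genotypes, and Fbxl5 lies lowest. Slc40a1 and Aco1 are lower, and Tfrc is higher, in all LOF than in all WT embryos. Of all transcripts 12.1% had genotypes that did not overlap.

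Between the genotypes, 1 of the 7 tested mRNAs passed the test in RPF (FDR < 0.1), Slc40a1, which fell. Of all transcripts tested 2.19% passed in RPF. Slc40a1 RPF was 19.4, 15.6 and 14.6 CPM in the WT embryos and 9.33, 10.4 and 7.04 CPM in the LOF embryos. Every LOF embryo lay below every WT embryo, with a log2 fold change of -0.91 (SE 0.17, FDR = 0.0450). Its mRNA was 22.6, 22.3 and 19.9 CPM in the WT and 15.3, 18.4 and 11.7 CPM in the LOF embryos. The groups again did not overlap, and the log2 fold change of -0.48 (SE 0.14) had an FDR of 0.104, just short of the threshold. Ferroportin is the only known cellular iron exporter of mammals.

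The Slc40a1 call depended on single embryos and on the Y-linked covariate. Without WT embryo 1, WT embryo 2 or LOF embryo 3 the FDR was 0.273, 0.173 and 0.155, in fits that called 12, 4 and 40 of all transcripts. The log2 fold changes in these fits were -0.77, -0.95 and -0.75. With the Y-linked level as a covariate the FDR was 0.457 at a log2 fold change of -0.62. In RNA, where it was not called, the FDR was 0.0388 with DESeq2, 0.0926 with limma-voom and 0.0185 without LOF embryo 2, and 0.0605 with the replicate block. Without any other embryo it was 0.136 to 0.290. The RNA log2 fold change was -0.19 (FDR = 0.802) with the Y-linked covariate and -0.87 (FDR = 0.0635) with sva.

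Tfrc differed in the other direction in RPF and stopped short of the threshold. Its RPF was 463, 489.6 and 502 CPM in the WT embryos and 635, 542 and 579 CPM in the LOF embryos, so that the LOF embryos were all above the WT embryos. The log2 fold change was 0.27 (SE 0.072, FDR = 0.113). Some settings put it on the other side of the threshold, with an FDR of 0.0548 with DESeq2, 0.0965 with limma-voom and 0.0162 without LOF embryo 2. Others did not, with 0.174 with the replicate block, 0.659 with the Y-linked covariate and 0.150 to 0.491 without any other embryo. Over 14 alternatives the log2 fold change ran from 0.21 to 0.32. Tfrc mRNA was 357, 359 and 378 CPM against 394, 394 and 354 CPM, with overlapping groups and a log2 fold change of 0.063 (SE 0.056, FDR = 0.633).

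Fth1 RPF did not separate the genotypes. It was 168, 137 and 178 CPM in the WT and 138, 236 and 148 CPM in the LOF embryos, the LOF embryo 2 value being the highest of the 6 (log2 fold change 0.11, SE 0.17, FDR = 0.842). Without that embryo the log2 fold change was -0.17 (FDR = 0.340). Fth1 mRNA was 315, 284 and 306 CPM and 234, 309 and 297 CPM (log2 fold change -0.11, SE 0.093, FDR = 0.629). Ftl1 mRNA, measured over a transcript that shares 81% of its windows with the copies, was 32.8, 26.5 and 32.2 CPM in the WT embryos and 24.6, 28.3 and 30.7 CPM in the LOF embryos, and the groups overlapped. Slc11a2 differed little in either measure, with RPF of 38.6, 34.4 and 38.2 CPM against 40.4, 34.2 and 37.4 CPM (log2 fold change 0.0066, SE 0.096) and an RNA log2 fold change of -0.019 (SE 0.073).

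Differences in the regulators were small. Aco1 RPF was 222, 229 and 229 CPM in the WT and 219, 206 and 211 CPM in the LOF embryos, below the WT range throughout but by a log2 fold change of -0.096 (SE 0.060, FDR = 0.525). Aco1 mRNA was 124, 125 and 125 CPM against 128, 127 and 131 CPM, above the WT range by 0.043 (SE 0.041, FDR = 0.670). Ireb2 RPF was 162, 162 and 157 CPM against 148, 164 and 154 CPM (-0.047, SE 0.065, FDR = 0.817), with an RNA log2 fold change of 0.038 (SE 0.094). Fbxl5 RPF was 32.8, 38.0 and 38.6 CPM against 29.0, 37.6 and 31.5 CPM (-0.15, SE 0.11, FDR = 0.605). Fbxl5 mRNA was 92.7, 92.2 and 97.9 CPM against 92.0, 89.2 and 76.5 CPM, lower in all LOF embryos but by a log2 fold change of -0.13 (SE 0.067, FDR = 0.382).

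**Figure D3:**
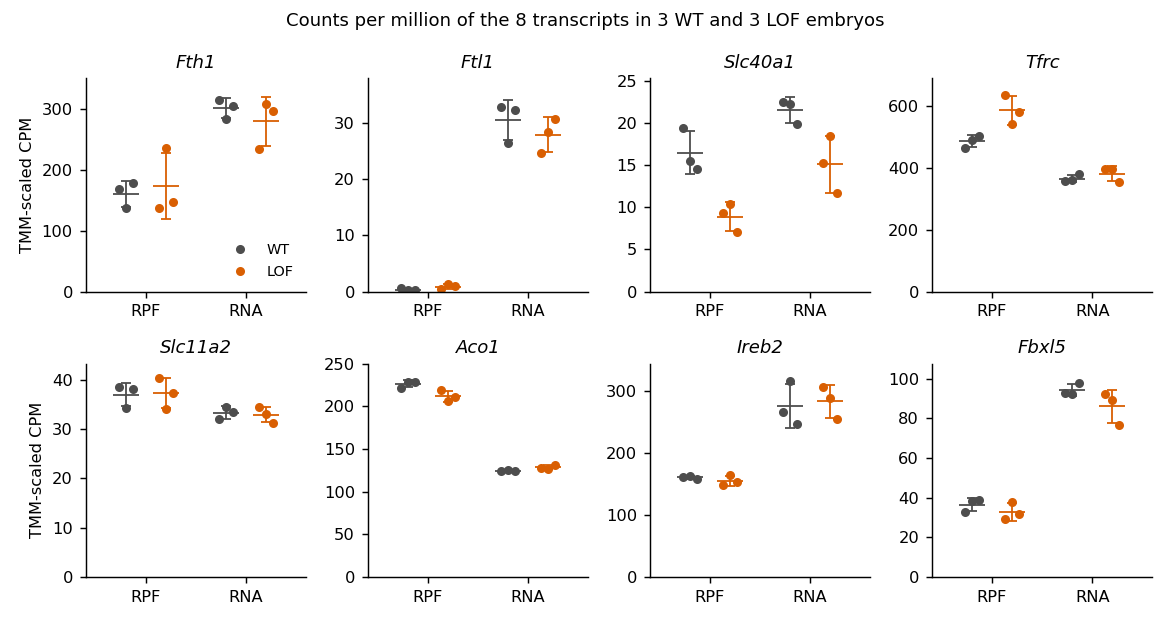
TMM-scaled CPM of the 8 mRNAs in RPF and RNA libraries, with 1 point for each of 3 WT (grey) and 3 LOF (orange) embryos, the mean as a dash and the SD as an error bar. Slc40a1 RPF runs from 14.6 to 19.4 CPM in WT and from 7.04 to 10.4 CPM in LOF embryos, Tfrc RPF is higher in LOF embryos, and Ftl1 has almost no RPF.

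In RNA none of the 7 passed the test with edgeR, beside 5.02% of all transcripts. At an unadjusted p under 0.05 there was 1 (Slc40a1), beside 17% of all transcripts, and DESeq2 and limma-voom each called 1. In RPF 3 of the 7 (Slc40a1, Tfrc and Aco1) had genotypes that did not overlap, beside 19.4% of all transcripts, and in RNA 3 (Slc40a1, Aco1 and Fbxl5), beside 22.8%. The median log2 fold change of the 7 was -0.047 in RPF and -0.0185 in RNA, and that of all transcripts 0.0036 and -0.0018.

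The change of RPF relative to RNA, which the interaction of genotype and library kind tests, passed the threshold for none of the 7 mRNAs with edgeR or DESeq2, and for 0% of all transcripts with edgeR, where the lowest FDR was 0.974. Tfrc alone had an unadjusted p under 0.05, as had 4.44% of all transcripts (log2 change 0.21, SE 0.094, FDR = 1.00). Over 15 alternatives the Tfrc change ran from 0.073 to 0.29. Its log2 RPF/RNA was 1.04, 0.84 and 1.07 in the LOF embryos, above the 0.76 to 0.82 of the WT embryos, with LOF embryo 2 only just above. Slc40a1 RPF/RNA was -0.45, -0.55 and -0.47, below the lowest WT value of -0.25 (log2 change -0.43, SE 0.24). Aco1 RPF/RNA was 0.56, 0.50 and 0.47, below the lowest WT value of 0.65 (-0.14, SE 0.069). These 3 of 7 were the ones whose genotypes did not overlap, beside 12.1% of all transcripts. Fth1 RPF/RNA ran from -0.85 to -0.22 in the LOF embryos, with 2 of them within the WT range (0.22, SE 0.23, and 0.015 without LOF embryo 2).

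Read as the contrast of 5′ and 3′ control, Fth1 and Slc40a1 differed from Tfrc and Slc11a2 by -1.22, -0.89 and -1.38 in the LOF embryos, a mean difference of -1.16 ± 0.25, beside -0.96 ± 0.066 in the WT embryos. The embryos of the genotypes overlapped in this contrast, whose mean changed by -0.20. With Fth1 and Tfrc alone the contrast was -1.53 ± 0.16 in WT and -1.54 ± 0.44 in LOF embryos. The differences between the genotype means of RPF/RNA were 0.18 for Fth1 and -0.38 for Slc40a1, beside 0.19 for Tfrc and 0.012 for Slc11a2. That of Fth1 rested on LOF embryo 2.

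**Figure D4:**
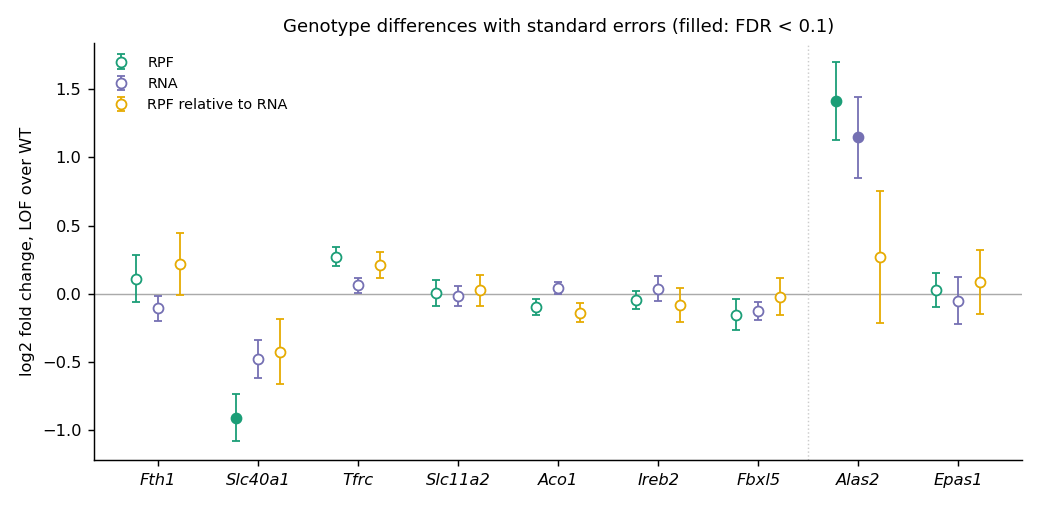
Log2 fold changes of LOF over WT with standard errors from the edgeR fit, for RPF, RNA and RPF relative to RNA, in 7 of the 8 mRNAs and 2 comparison mRNAs with a 5′ IRE. Filled points have an FDR < 0.1, and these are Slc40a1 in RPF (-0.91) and Alas2 in RPF (1.41) and RNA (1.15).

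Of the other mRNAs with a 5′ IRE, Alas2 rose in both measures. Its RPF was 12.4, 9.48 and 26.4 CPM in the WT and 37.7, 52.2 and 39.0 CPM in the LOF embryos (log2 fold change 1.41, SE 0.29, FDR = 0.0563), and its mRNA 11.3, 12.9 and 29.1 against 31.6, 41.8 and 48.9 CPM (1.15, SE 0.30, FDR = 0.0776). The RPF call was lost without WT embryo 1, WT embryo 2 or LOF embryo 3 (FDR 0.283, 0.204 and 0.146), and the RNA call without these or LOF embryo 2 (0.241, 0.194, 0.183 and 0.118). Without 1 embryo the log2 fold change ran from 1.16 to 1.96 in RPF and from 0.93 to 1.72 in RNA. The Y-linked covariate also ended both calls (FDR 0.122 in RPF and 0.418 in RNA, at log2 fold changes of 1.64 and 1.12), and DESeq2 and sva the RNA call (0.154 and 0.114). The change in RPF relative to RNA was 0.27 (SE 0.49). Epas1 (RPF log2 fold change 0.027, RNA -0.050) did not pass either test. The other mRNAs named for a 3′ IRE, Cdc14a, Cdc42bpa and Pfn2, gave no call, and the 3′UTRs of their counted transcripts held no paired match.

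The wider iron pathway was listed by hand in 8 groups, with 72 of its 80 genes in the table passing the filter (73 of 81 transcripts, Ndor1 having 2). In RPF 2 of 72 genes passed the test (2.78%, beside 2.19% of all transcripts), in RNA 5 (6.94%, beside 5.02%), and in RPF relative to RNA none. Uptake, transport and storage gave 0 RPF and 2 RNA calls among 18 genes. Steap3, the endosomal ferric reductase of red cell precursors, rose in RNA by 0.93 (SE 0.24, FDR = 0.0716), and Trf, transferrin, fell by 0.88 in RNA (SE 0.19, FDR = 0.0410), both from low levels (2.26 to 6.65 CPM and 1.61 to 4.74 CPM). Bmp6, a BMP ligand that induces hepcidin in the adult liver, was the 1 RNA call among 5 systemic regulators (-0.56, SE 0.13, FDR = 0.0539). Flvcr2, a transporter of choline once described as a heme importer, was the 1 RPF call among 10 genes of heme handling (-0.66, SE 0.16, FDR = 0.0887). Slc25a37, mitoferrin-1, which brings iron into the mitochondria of erythroid cells, was the 1 RNA call among 18 genes of mitochondrial iron and iron-sulfur assembly (0.62, SE 0.17, FDR = 0.0867). Cytosolic iron-sulfur assembly (11 genes) and the partners of FBXL5 in its ligase (4 genes) gave no call in RPF or RNA, with RPF medians over their transcripts of 0.027 and 0.052. The Trf call was lost without WT embryo 1 (FDR = 0.143), that of Steap3 without WT embryo 1, WT embryo 2, LOF embryo 2 or LOF embryo 3 (0.217, 0.197, 0.190 and 0.150), and that of Bmp6 without WT embryo 1, WT embryo 2 or LOF embryo 1 (0.169, 0.166 and 0.134). The Flvcr2 call stayed only without LOF embryo 2 and the Slc25a37 call only without WT embryo 3, and leaving out any other embryo gave an FDR of 0.150 to 0.345 and of 0.119 to 0.281. DESeq2, the replicate block and the Y-linked covariate also ended the Flvcr2 call (0.255, 0.116 and 0.619) and the Slc25a37 call (0.197, 0.114 and 0.148). With sva, 0 of the pathway genes passed in RNA (Slc25a37 0.412, Trf 0.139, Steap3 0.216 and Bmp6 0.423), and with the Y-linked covariate the FDR of Trf, Steap3 and Bmp6 was 0.519, 0.226 and 0.481. The RNA log2 fold changes with this covariate were -0.63 for Trf, 1.13 for Steap3, -0.51 for Bmp6 and 0.84 for Slc25a37, and the RPF one of Flvcr2 was -0.57.

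Markers of yolk sac endoderm and of primitive red cells, and 2 of the 12 embryo markers, differed between the genotypes in the same libraries. Of 10 visceral endoderm markers 8 fell in RPF and 10 in RNA, beside 2.19% and 5.02% of all transcripts called in either direction. Median log2 fold changes of the 10 markers were -1.11 and -1.32. Their summed RPF was 6450.0 to 8493 CPM in the WT and 2324 to 4882 CPM in the LOF embryos, and their summed RNA 3224 to 4069.7 and 926 to 2287 CPM. None of the 10 was at 0. Without WT embryo 1 or WT embryo 2 no endoderm marker was called in RPF, and 3 and 6 were called in RNA. The RPF calls numbered 2, 3 and 5 without LOF embryo 1, LOF embryo 3 and WT embryo 3, and the RNA calls 6 without LOF embryo 3. Slc40a1, which endoderm of the yolk sac is known to use for iron transfer, and Trf fell along with them, LOF embryo 3 being the lowest of the 6 embryos in the marker sum and in Slc40a1 in both kinds of library. Of 9 primitive erythroid markers 2 (Hbb-y and Klf1) rose in RPF and none in RNA by edgeR. In RNA 7 of the 9 had an unadjusted p under 0.05, beside 17% of all transcripts. Medians of the 9 were 1.29 in RPF and 0.96 in RNA. DESeq2 called 2 and 3, and without WT embryo 3 there were 7 and 9 erythroid calls, without LOF embryo 2 there were 4 and 0, and without any of the other 4 embryos 0 in both. Their summed RPF was 837 to 2807 CPM in the WT and 3494 to 5755 CPM in the LOF embryos, none of the 9 being at 0, and their summed RNA 416 to 1711 and 1529 to 2556 CPM. Alas2 rose in RPF and RNA, and Steap3 and Slc25a37 in RNA. Fth1 RPF and the erythroid RPF sum were both highest in LOF embryo 2, while Tfrc RPF was highest in LOF embryo 1. Among the 12 embryo markers, Tnnt2, cardiac troponin T, rose in RPF (0.50, SE 0.082, FDR = 0.0275) and RNA (0.27, SE 0.069, FDR = 0.0720), and Myl7, an atrial myosin light chain, in RNA (0.31, SE 0.057, FDR = 0.0260). The other heart marker of the list, Nkx2-5, was not called (RPF 0.087, FDR = 0.647, RNA 0.20, FDR = 0.212). At an unadjusted p under 0.05 there were 6 of the 12 in RNA, beside 17% of all transcripts. In RPF there were 4, and the share of all transcripts was not counted there. These markers went in both directions (in RPF Tbx6 -0.41 and Pax6 -0.37, in RNA Sox1 -0.32 and Tcf15 -0.26, none with an FDR under 0.1). Medians of the 12 were 0.043 in RPF and -0.053 in RNA. Their summed RPF was 833 to 893 CPM in the WT and 985 to 1037 CPM in the LOF embryos, their summed RNA 671 to 691 and 717 to 765 CPM, and none was at 0. The RPF call was lost without WT embryo 1 or WT embryo 2, both RNA calls without WT embryo 1 or with the Y-linked covariate, and the Tnnt2 RNA call also without WT embryo 2, LOF embryo 2 or LOF embryo 3. With sva neither gene was called in RNA. Of 6 macrophage markers, none at 0 over the libraries of either kind, 4 passed the filter and none was called. Their summed RPF of 19.8 to 32.7 CPM in the WT embryos enclosed that of the LOF embryos, and their summed RNA was 14.3 to 15.9 CPM in the WT and 11.8 to 14.9 CPM in the LOF embryos. Of 6 trophoblast and decidua markers 3 passed the filter and none was called, and 1 of the 6 was at 0 in RNA. Their summed RPF was 127 to 288 CPM in the WT and 84.0 to 323 CPM in the LOF embryos. Most of this was Prl8a2, at 113 to 279 and 70.4 to 313 CPM. The part of these cell types in the results for Slc40a1, Tfrc and Alas2 was not tested.

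**Figure D5:**
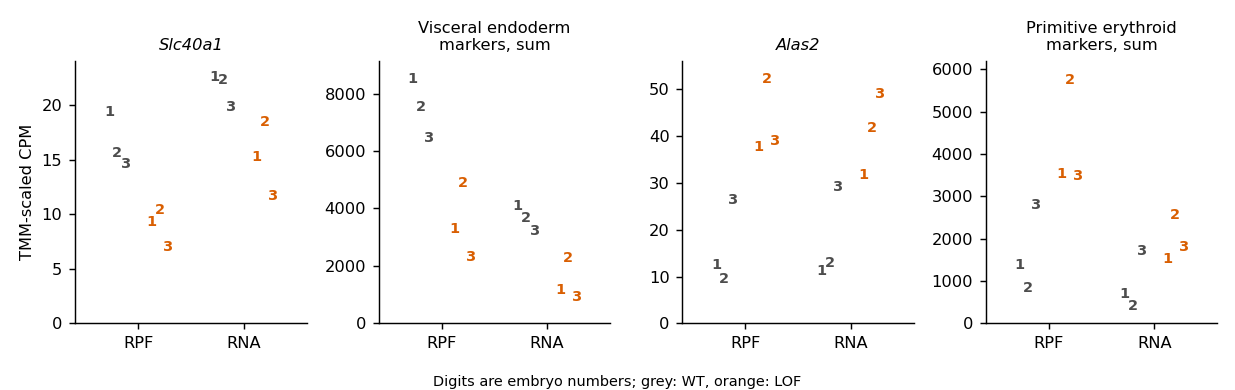
TMM-scaled CPM of Slc40a1 and Alas2 beside the summed CPM of 10 visceral endoderm and 9 primitive erythroid markers, with each embryo drawn as its number (grey, WT; orange, LOF). Slc40a1 and the endoderm sum are lower in all LOF embryos in both kinds of library, and Alas2 is higher in all of them.

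The RPF pattern over the 6 embryos most like that of Fth1 was found in Nipsnap2, Cmtr1 and Pax9 (Pearson's r of log2 CPM 0.994, 0.989 and 0.988), most like that of Tfrc in Myh6, Slc7a1 and Exosc8 (0.996, 0.996 and 0.995), and most like that of Slc40a1 in Cotl1, Lcp1 and Dnajb14 (0.998, 0.995 and 0.994). Over so few libraries such values are common: 36, 107 and 143 of the tested transcripts had an r above 0.95 with Fth1, Tfrc and Slc40a1. No other IRE mRNA was among the 9.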

How the data were processed

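RPF and RNA libraries of 3 Rpl10a +/+ and 3 Rpl10a LOF/LOF embryos were analysed, with groups taken from the submitters' labels. The authors deposited counts per transcript, whole numbers without normalization. Their pipeline trimmed reads, removed those from rRNA, tRNA and snRNA, used bowtie2 against GRCm38/mm10 transcripts (1 for each gene symbol, except 19 symbols with 2), and collapsed PCR duplicates with UMI-tools. RPF reads were counted by A site in the CDS without its first 15 and last 5 codons, RNA reads along the whole transcript. Each count is thus about 1 captured molecule, and mRNA isoforms are not told apart.

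Here, identifiers were joined to GENCODE annotation (M21) of GRCm38 without regard to version (21976 of 22467 had the same version, 477 another, Fth1 among these). Transcripts above 0.75 CPM in 3 or more RPF libraries were kept. TMM scaling was done separately for RPF and RNA, and the genotype effect came from edgeR 4.0.16 (quasi-likelihood, R 4.3.3), with Benjamini-Hochberg adjustment over all transcripts tested and a threshold of 0.1. For RPF relative to RNA, 1 model of the 12 libraries gave the genotype by library kind interaction. RPF/RNA used 0.5 added counts, per kb of counted CDS and of transcript. Precision is set by RPF depth of 7041357 to 10863499 counts, RNA depth of 9132521 to 26561843 counts and 3 embryos in each group, and the p-values measure the spread between these embryos. The labels assign no litter or batch. The steps were tested on simulated data.

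The 8 genes, the gene lists and the tests were chosen with earlier results of these data known. Named were the 8 genes, Alas2 and Epas1, pathway genes at FDR < 0.1, the 3 transcripts with the most similar RPF pattern for each of Fth1, Tfrc and Slc40a1, and Rpl10a. The result of 1 further gene under this rule is not reported here. Cdc14a, Cdc42bpa and Pfn2 are named as a whole list, and marker genes as members of their lists. Alternatives were DESeq2 1.42.0, limma-voom (limma 3.58.1) without and with sva 3.50.0, RLE size factors, other filters, replicate and embryo blocks, a Y-linked covariate, other pseudocounts, lengths and scalings, and leaving out each embryo. Same-numbered WT and LOF samples are different embryos, and their deviations correlated at -0.098 to 0.094. RPF and RNA libraries of 1 embryo are paired by origin, and their deviations correlated at 0.17 to 0.38.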

Additional observations from a re-analysis of the deposited data

How the results depend on the processing

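Of the 7 tested mRNAs, DESeq2, limma-voom, limma-voom with sva and the fit without a filter each called 2 in RPF, and the fit with the Y-linked covariate 0. Leaving out 1 embryo gave 0 to 2. In RNA, 1 was called by DESeq2, limma-voom, sva, no filter, the stricter filter and the replicate block, and 0 to 1 without 1 embryo. No setting called any of the 7, or any pathway gene, in RPF relative to RNA, the embryo block (paired RPF and RNA libraries) and the replicate block included (0 calls). The replicate block left 1 call in RPF, added that of Slc40a1 in RNA (FDR = 0.0605) and changed no other call of the 7 mRNAs. Of 14 alternatives, 10 called Slc40a1 in RPF, 7 in RNA, and 5 called Tfrc in RPF. Pathway calls in RPF numbered 14 with sva, 5 without a filter, 0 with the Y-linked covariate, and 0 to 9 without 1 embryo. In RNA they numbered 3 with DESeq2 and with the stricter filter, 8 without a filter, 0 with sva and with the Y-linked covariate, and 0 to 7 without 1 embryo. For RNA, 3 surrogate variables could not be fitted and 2 were used. The WT contrast of the 4 mRNAs under 5′ and 3′ control was -0.99 to -0.92 without 1 WT embryo, and its change -0.34 to -0.093 without 1 embryo. With Fth1 against Tfrc alone, the WT contrast was -1.53 and its change -0.014. Signs of uncalled log2 fold changes turned as follows. With the Y-linked covariate, RPF values were -0.074 for Slc11a2, 0.010 for Ireb2 and -0.14 for Epas1, the Slc11a2 RNA value 0.0028, and RPF relative to RNA -0.076 for Slc11a2 and 0.042 for Fbxl5. With sva they were -0.0099 for Slc11a2 RPF, -0.044, -0.11 and 0.25 for Tfrc, Ireb2 and Epas1 RNA, and 0.038 and 0.10 for Ireb2 and Fbxl5 in RPF relative to RNA. Slc11a2 RPF was -0.0040 without a filter. Without 1 embryo, RPF ran from -0.17 to 0.25 for Fth1, -0.053 to 0.063 for Slc11a2 and -0.13 to 0.13 for Epas1, RNA from -0.19 to 0.0076 for Fth1, -0.055 to 0.012 for Slc11a2, -0.040 to 0.16 for Ireb2 and -0.21 to 0.15 for Epas1, and RPF relative to RNA from -0.057 to 0.081 for Slc11a2, -0.20 to 0.0082 for Ireb2 and -0.11 to 0.098 for Fbxl5. Endoderm marker calls numbered 4 in RPF with DESeq2, and 0 in RPF and 2 in RNA with the Y-linked covariate. Erythroid marker calls in RPF numbered 5 with limma-voom and with the replicate block, 9 with sva, 7 without a filter, 1 with the stricter filter and 0 with the Y-linked covariate, and in RNA 3 with DESeq2, 4 with limma-voom, 6 without a filter and 1 with the replicate block. Over all transcripts, 276 calls in RPF and 631 in RNA became 2221 and 329 with sva and 22 and 35 with the Y-linked covariate, 437 in RPF without a filter, and 4 to 1449 and 138 to 594 without 1 embryo. RPF relative to RNA had 0 calls, 4 with DESeq2 and 26 without LOF embryo 2. The cause of these shifts was not tested. The counts of endoderm, erythroid and embryo marker calls under other settings were chosen after seeing the data.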
